A study of Danio rerio with 4 samples.

Results

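Whole zebrafish embryos labelled KDM5A-KO were compared with wild type (WT) embryos at 24 hours post fertilization (hpf), by RNA sequencing of 1 library per group. The comparison covered protein-coding genes only, and a gene was counted when its expression reached 1 FPKM (fragments mapped per kilobase of gene, scaled to the size of the library and rescaled here between libraries) in at least 1 of the libraries of 24 hpf. This gave 16315 of the 24058 protein-coding genes, and of the 26812 genes of the whole table. The series holds 4 libraries. The KDM5A-KO and WT libraries of 48 hpf served here only for the rescaling, for recovering gene lengths and reads, and as further values. The KDM5A-KO embryos carried a CRISPR/Cas9 knockout of Kdm5a, and the WT embryos carried no edit, per the labels. The labels describe separate matings of KO fish and of WT fish, the sample titles of the KDM5A-KO libraries carry the letters mo, and the study's methods describe embryos injected with the Cas9 reagents and a pool of embryos per group. Which of these holds was not settled by the files, and whether the WT embryos received a mock injection is not given in the sources used here. The columns were assigned to libraries by their names, with K read as KDM5A-KO, C as WT, 1 as 24 hpf and 2 as 48 hpf, which is an inference.

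KDM5A is a histone demethylase that removes methyl groups from lysine 4 of histone H3, a mark of active promoters. At the age compared, the zebrafish embryo has a beating heart, contracting trunk muscle, a regionalised brain, an early lens and the first pigment cells. Innate immune genes are switched on in many cell types by infection or tissue damage, and crystallins and sarcomere proteins are made in large amounts as lens and muscle mature.

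By totals inferred from the FPKM values, the library labelled KDM5A-KO had 14724748 reads and the WT library 7441797. Reads of genes in or next to ribosomal RNA (rRNA) loci made up 0.429% of the library labelled KDM5A-KO and 12.1% of the WT library at 24 hpf, against 0.29% and 0.432% at 48 hpf, so the WT library of 24 hpf stood apart in this measure. Expression of KDM5A was 18.3 FPKM in the library labelled KDM5A-KO and 15 FPKM in the WT library, from 1059 and 364 reads. The targeted mRNA was therefore not lower, and the group is named here by its label. The other H3K4 demethylases of the family, kdm5ba, kdm5bb and kdm5c, had log2 ratios of -0.01, -0.14 and -0.01. Markers of the main embryonic tissues were detected in both libraries, among them krt4 of the epidermis at 4666 and 4282 FPKM in KDM5A-KO and WT embryos, and mylpfa of fast muscle at 1146 and 1682 FPKM. In whole embryos, fewer cells of a type and less RNA per cell cannot be told apart.

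Of the 16315 genes, 337 (2.07%) were at least 2-fold higher in KDM5A-KO than in WT embryos and 276 (1.69%) were at least 2-fold lower. Fold is given as the log2 ratio, log2((KDM5A-KO + 1)/(WT + 1)) of rescaled FPKM, and the added 1 FPKM makes changes of genes with low values look smaller than they are. Most genes moved little, since 13994 genes (85.8%) lay within 1.5-fold. The higher genes reached further, with 129 past 3-fold, against 62 of the lower genes. A 95% counting interval of the ratio, from the reads alone and without the added 1 FPKM, lay beyond 0 for 327 of the higher and 263 of the lower genes. With 1 library in each group there is no replicate check and no p-value, and the intervals hold counting error alone. Rescaling lowered the log2 ratio of the FPKM themselves by 0.27 for every gene. In values as deposited, 611 genes were higher and 159 lower, and the higher genes made up 79.4% of those past 2-fold, against 55.0% after rescaling. All 159 are among the 276, and the other 117 were lower only after rescaling. Of 77 lower genes chosen for naming, 32 are among these 117, including all with a log2 ratio above -1.21.

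**Figure D1:**
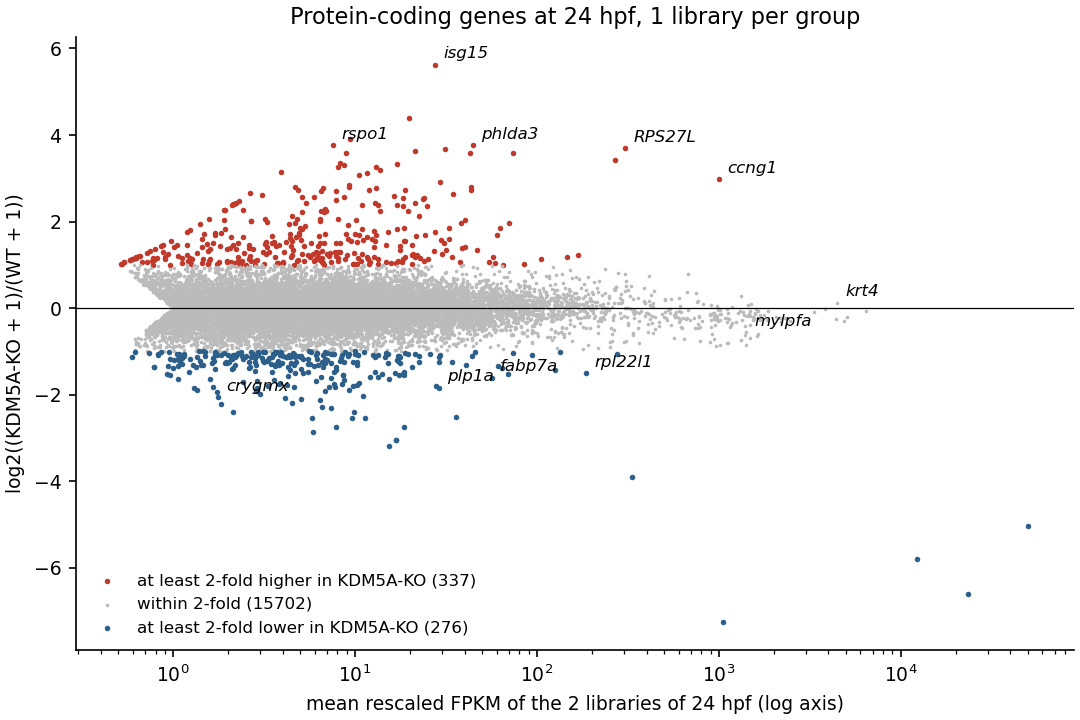
Log2 ratio (y axis) against the mean rescaled FPKM of the KDM5A-KO and WT libraries of 24 hpf (x axis, log scale), 1 point per protein-coding gene. The 337 higher genes reach 5.63 for isg15, and the 5 lowest points, below -3.8, are genes with sequence of the rRNA locus.

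Some of the genes with the highest ratios in KDM5A-KO embryos, which were picked by those ratios, have known roles in the cell cycle or in cell death. The most abundant of all 337 higher genes was the cyclin G gene ccng1, which had 1773 FPKM in KDM5A-KO and 223 FPKM in WT embryos, a log2 ratio of 2.98. Expression of cdkn1a, the inhibitor of cyclin-dependent kinases also called p21, was 80.0 FPKM in KDM5A-KO and 5.76 FPKM in WT embryos, from 1590 and 48 reads, with a log2 ratio of 3.58. The pleckstrin-domain gene phlda3, which restrains Akt survival signalling in mammals, had 83.4 FPKM in KDM5A-KO and 5.22 FPKM in WT embryos, a log2 ratio of 3.76. For casp8, the initiator caspase of death receptors, the values were 40.6 and 2.36 FPKM, a log2 ratio of 3.63. The ubiquitin ligase gene mdm2 (ENSDARG00000033443) had 138 FPKM in KDM5A-KO and 10.6 FPKM in WT embryos, a log2 ratio of 3.57. The ribosomal protein paralogue RPS27L had 569 and 42.9 FPKM in KDM5A-KO and WT embryos, a log2 ratio of 3.70. All 6 of these genes were also at least 2-fold higher at 48 hpf, where the log2 ratio of cdkn1a was 3.29.

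Innate immune and inflammatory genes formed a further increased group. Over 5 lists combined, covering interferon response, antigen presentation, phagocyte, chemokine and complement genes, 30 of 123 counted genes (24.4%) were at least 2-fold higher and 0 were lower. Over all counted genes, 2.07% were higher and 1.69% lower. Some of the 30, such as isg15 and mxc, reached 1 FPKM only in KDM5A-KO embryos, so the share depends in part on the filter at 1 FPKM. The highest ratio of the whole comparison was that of isg15, a ubiquitin-like modifier made in response to interferon, which had 54.7 FPKM in KDM5A-KO embryos, from 1019 reads, and 0.128 FPKM in WT embryos, from 1 read. Of 26 counted interferon response genes, 8 were higher, and the list summed to 228 FPKM in KDM5A-KO and 117 FPKM in WT embryos without isg15. The exonuclease gene isg20 had 98.8 FPKM in KDM5A-KO and 26.9 FPKM in WT embryos, a log2 ratio of 1.84. The Mx GTPase gene mxc, an antiviral effector, had 5.78 and 0.616 FPKM, a log2 ratio of 2.07.

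Of the lists with at least 10 counted genes, antigen presentation had the highest median log2 ratio, 0.91 above that of all genes. Of its 30 matched genes 14 were counted, and 6 of these were past 2-fold. Some of the 6, such as mhc1uba and cd74a, reached 1 FPKM only in KDM5A-KO embryos, so the median and the share depend in part on that filter. The light chain of class I molecules, b2m, had 23.4 FPKM in KDM5A-KO and 4.12 FPKM in WT embryos, a log2 ratio of 2.25. The class I heavy chain gene mhc1uba had 4.93 FPKM in KDM5A-KO and 0.459 FPKM in WT embryos. Its relatives are similar in sequence, so its reads are uncertain. An entry of the immunoproteasome gene psmb10 had 28 reads in the library labelled KDM5A-KO and 0 in the WT library, at least 3.91-fold higher against a floor of 3 reads in that library. A second entry, PSMB10 (ENSDARG00000043781), had 50 and 27 reads and a log2 ratio of -0.23.

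Chemokine and tissue remodelling genes were higher as well. The neutrophil chemokine cxcl18b had 21.5 FPKM in KDM5A-KO and 1.59 FPKM in WT embryos, a log2 ratio of 3.12. The macrophage growth factor il34 had 9.80 and 0.999 FPKM, a log2 ratio of 2.43, and CXCL8 had 25 reads in the library labelled KDM5A-KO and 0 in the WT library. Of 19 counted matrix metalloproteinase and inhibitor genes, 5 were higher, beside 2.07% of all counted genes. Some of the 5, such as mmp13a and mmp13b, reached 1 FPKM only in KDM5A-KO embryos, so the share depends in part on the filter at 1 FPKM. The median of that list, however, was only 0.11 above that of all genes. The gelatinase gene mmp9, a marker of tissue damage in fish, had 23.6 FPKM in KDM5A-KO and 2.57 FPKM in WT embryos, a log2 ratio of 2.78. The more abundant gelatinase gene mmp2 had 112 and 27.8 FPKM, a log2 ratio of 1.97. In the complement list, 4 of 31 genes were higher, led by c3a.1 with 17.5 FPKM in KDM5A-KO and 4.21 FPKM in WT embryos.

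In the list of macrophage and neutrophil genes, 8 of 27 were higher, beside 2.07% of all counted genes. The 8 included mmp9, mmp13a, the chemotactic factor gene lect2l and the transcription factor gene cebpb. They also included MFAP4, a relative of a zebrafish macrophage marker, and srgn, a proteoglycan of leukocyte granules. Of the 8, mmp13a reached 1 FPKM only in KDM5A-KO embryos, so the share depends in part on the filter at 1 FPKM. The 5 defining markers of macrophages and neutrophils, spi1b, lcp1, mpx, lyz and mpeg1.1, summed to 9.15 FPKM in KDM5A-KO and 11.7 FPKM in WT embryos. Among them, spi1b had 1.16 and 0.532 FPKM in KDM5A-KO and WT embryos, whereas mpx had 0.756 and 1.07 FPKM, and all 5 log2 ratios lay between -0.47 and 0.50. The part of phagocyte number in the increased innate genes was not tested.

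Immediate early genes, transcription factors that are switched on within minutes of a stimulus, were increased too. Of 30 counted genes, 7 were higher and 27 had a log2 ratio above 0, with a median 0.46 above that of all genes. The AP-1 genes fosl1a, fosab and junbb had log2 ratios of 2.01, 1.97 and 1.68, and junbb was the most abundant of them with 92.0 FPKM in KDM5A-KO and 28.0 FPKM in WT embryos. The stress factor gene atf3 had 14.5 FPKM in KDM5A-KO and 5.36 FPKM in WT embryos. Beside these, 43 heat shock and chaperone genes had no member past 2-fold and a median 0.07 above that of all genes. Of 49 genes of the unfolded protein and amino acid stress list, 3 were higher, namely ddit3, cebpb and atf3, and 1, the serine synthesis gene phgdh, was lower. Hypoxia response genes had 0 of 30 past 2-fold, and oxidative and metal stress genes had 3 of 40 higher. Over all counted genes, 2.07% were higher and 1.69% lower, so the counts of 0 in these lists lie near those shares.

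Leading increases outside these lists included signalling and growth genes. The R-spondin gene rspo1, a secreted enhancer of Wnt receptors, had 15 FPKM in KDM5A-KO embryos, from 635 reads, and 0.169 FPKM in WT embryos, from 3 reads. The activin and Bmp antagonist fsta had 76.3 FPKM in KDM5A-KO embryos, from 4414 reads, against 246 reads in WT embryos, a log2 ratio of 2.79. The retinoblastoma relative rbl2 and the cell cycle inhibitor cdkn2a/b had log2 ratios of 3.27 and 3.31, with 102 reads in the KDM5A-KO and 2 reads in the WT library for cdkn2a/b. Expression of lnx1, an E3 ubiquitin ligase gene, was 31.8 FPKM in KDM5A-KO and 2.25 FPKM in WT embryos. The immune surface gene cd83 and the ataxin gene atxn1b had log2 ratios of 3.34 and 3.27. An entry named RNF14 (ENSDARG00000078683) had 58.8 and 3.70 FPKM in KDM5A-KO and WT embryos, and ms4a17a.10 (ENSDARG00000105674) had 17.2 and 0.522 FPKM. Both symbols belong to more than 1 gene of the table, so reads may be split between copies.

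Among the lower genes, core histone and linker histone genes were the largest group. Genes with a histone domain numbered 118, of which 62 (48 core and 14 linker histone genes) were at least 2-fold lower and 0 were higher. The shares over all counted genes were 1.69% lower and 2.07% higher. Some of the 62, such as si:ch211-113a14.18 and zgc:110425, reached 1 FPKM only in WT embryos at 24 hpf. The share of lower histone-domain genes therefore depends in part on the filter at 1 FPKM. Histone-domain genes made up 62 of the 276 lower genes, and a further 6 carried sequence of the rRNA locus. Without these genes, 208 were lower in place of 276. In values as deposited, 56 of the 62 histone-domain genes stayed past 2-fold. Replication-dependent histone genes lie in clusters of near-identical copies and their mRNAs end without a poly(A) tail. All 62 lower genes lay on chromosome 7, with 29 of 52 counted, or chromosome 25, with 33 of 50 counted. The 16 histone-domain genes elsewhere included 0 past 2-fold and had median levels of 200 FPKM in KDM5A-KO and 201 FPKM in WT embryos.

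The 62 lower histone genes summed to 128 FPKM in KDM5A-KO and 606 FPKM in WT embryos at 24 hpf, against 138 and 114 FPKM at 48 hpf. Of the 4 libraries only WT at 24 hpf was high, as for the share of rRNA reads, and the part of that library in the result was not tested. The lowest named gene, the H3 entry HIST2H3PS2 (ENSDARG00000091770), had 2.83 FPKM in KDM5A-KO and 30.6 FPKM in WT embryos, from 19 and 86 reads, a log2 ratio of -3.04. The entry si:dkey-261m9.10 carried the same values at 24 hpf. The linker histone entry si:ch211-113a14.18 had 7 and 49 reads, a log2 ratio of -2.86. Genes with a linker histone domain had 14 of 20 lower. By their symbols and descriptions, H3 genes had 16 of 28 lower, H2B genes 9 of 11, H2A genes 15 of 32 and H4 genes 6 of 24. Another 3 genes fell in none of these classes, and 2 of them were lower. These shares too depend in part on the filter at 1 FPKM. Reads can be split between near-identical copies, so single histone genes are uncertain.

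**Figure D2:**
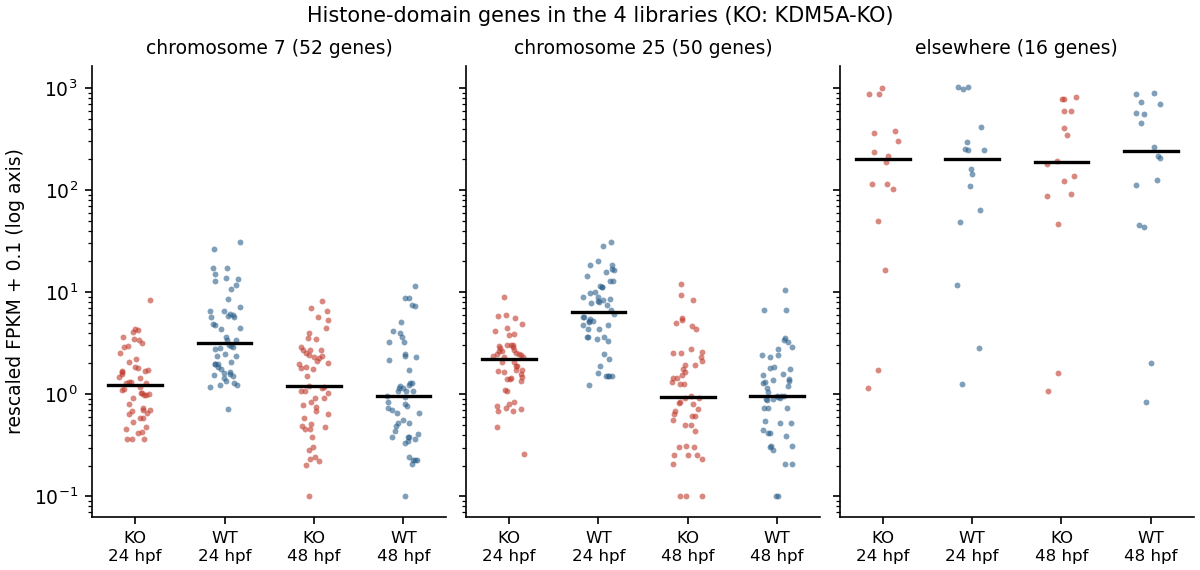
Rescaled FPKM plus 0.1 (y axis, log scale) of 118 histone-domain genes in the 4 libraries, in panels by chromosome, with 1 point per gene and a bar at the median. On chromosomes 7 and 25 the WT library of 24 hpf has the highest median of the 4, and the medians of the 16 genes elsewhere are 200 FPKM in KDM5A-KO and 201 FPKM in WT embryos at 24 hpf.

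Genes of cell proliferation had medians slightly below that of all genes, and few passed 2-fold. Of 60 DNA replication genes, 52 had a log2 ratio below 0, with a median 0.34 below that of all genes, and only the ribonucleotide reductase gene rrm2 was past 2-fold, with 48.1 FPKM in KDM5A-KO and 99.3 FPKM in WT embryos. The sliding clamp gene pcna had 468 and 619 FPKM in KDM5A-KO and WT embryos. Of 69 mitosis genes, 59 lay below 0, but the condensin gene ncapd3 and the cytokinesis gene ect2 were higher, with log2 ratios of 1.86 and 1.19. The H3K4 methylase and demethylase genes had 0 of 26 past 2-fold, near the shares over all counted genes, and a median 0.18 below that of all genes.

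The lens showed the largest share of lower genes of all tissue lists. Lens crystallins are the structural proteins that fill the fibre cells of the lens. Of 51 matched crystallin genes 17 were counted, and their median lay 1.11 below that of all genes. Of the 17, 11 (64.7%) were at least 2-fold lower and 1 was higher, beside 1.69% and 2.07% of all counted genes. Some of the 17, such as crygmx and crygn1, reached 1 FPKM in only 1 of the libraries of 24 hpf. The median and the share therefore depend in part on that filter. The summed expression of the matched crystallin genes was 67.7 FPKM in KDM5A-KO and 158 FPKM in WT embryos. The beta crystallin gene cryba4 had 6.92 FPKM in KDM5A-KO and 23.7 FPKM in WT embryos, from 80 and 115 reads, a log2 ratio of -1.64. The related crybb1l1 had 5.44 and 15 FPKM, a log2 ratio of -1.31, and the gamma crystallin crygmx had 1 and 20 reads. The exception was crygn1, with 60 reads in the library labelled KDM5A-KO and 0 in the WT library, at least 8.38-fold higher against a floor of 3 reads. The lens water channel gene mipa and the fibre membrane genes lim2.3 and lim2.4 were also lower, with mipa at 2.41 FPKM in KDM5A-KO and 6.28 FPKM in WT embryos. In values as deposited 6 crystallin genes and 0 of these 3 were past 2-fold. The retinal homeobox gene rx2 had 0.679 FPKM in KDM5A-KO and 5.08 FPKM in WT embryos, a log2 ratio of -1.86, while the other 16 counted eye field and retina regulators stayed within 2-fold. Crystallin levels were low at this age, and no crystallin gene exceeded 24.2 FPKM in WT embryos.

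Proneural bHLH factors commit progenitors to a neuronal fate. The median of 14 counted genes lay 0.63 below that of all genes. Of the 14, 5 (35.7%) were at least 2-fold lower, beside 1.69% of all counted genes. Among them, olig2, needed for motor neurons and oligodendrocytes, had 5.35 FPKM in KDM5A-KO and 14.2 FPKM in WT embryos, a log2 ratio of -1.26. For ascl1b the values were 9.92 and 24.6 FPKM, a log2 ratio of -1.23. As deposited, only 1 of the 5 stayed past 2-fold. Of 30 neural progenitor and radial glia genes, 27 were below 0 and 3 (10%) were at least 2-fold lower, beside the same 1.69%. The radial glia gene fabp7a, a brain fatty acid binding protein, had 27.4 FPKM in KDM5A-KO and 85.3 FPKM in WT embryos, a log2 ratio of -1.60. The Notch target her4.2 had 3.84 and 13.2 FPKM, a log2 ratio of -1.56, whereas the general progenitor gene sox2 had 49.6 and 57.4 FPKM.

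Of 21 counted glia and myelin genes, 4 were at least 2-fold lower, beside 1.69% of all counted genes. Among them plp1a, which encodes the myelin proteolipid protein, had 12 FPKM in KDM5A-KO and 45.5 FPKM in WT embryos, from 971 and 1544 reads. Its log2 ratio was -1.84. The glial glutamate transporter gene slc1a3a had 59.5 FPKM in KDM5A-KO and 128 FPKM in WT embryos, and the other lower genes of the list were the water channel gene aqp4 and the transcription factor gene pou3f1. Of these 4, plp1a and aqp4 stayed past 2-fold as deposited. Outside the list, gpm6bb, which encodes a relative of the proteolipid protein, had 8.22 FPKM in KDM5A-KO and 24.9 FPKM in WT embryos. The gene otpa, a regulator of neuroendocrine neurons, had 2.60 and 11.8 FPKM in KDM5A-KO and WT embryos. The neurohormone gene oxt had 3 and 14 reads. The neurotrophin gene ntf3 had 3 and 23 reads.

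Of 44 counted postmitotic neuron genes, 1 was higher, inaa, and 0 were lower, with a median 0.29 below that of all genes. The pan-neuronal RNA-binding protein gene elavl3 had 47.3 FPKM in KDM5A-KO and 70.4 FPKM in WT embryos, and the growth cone gene gap43 had 43.0 and 33.4 FPKM. Of 31 synaptic vesicle release genes, 1 (syt2a) was past 2-fold, and of the 37 counted in the list of neuron subtype transcription factors 0 were. That list does not hold otpa, named above, or its relative otpb, which had log2 ratios of -1.83 and -1.17. Fore-, mid- and hindbrain patterning genes had a median 0.13 above that of all genes. In that list gbx1 was the only lower one of 40, at 1.92 FPKM in KDM5A-KO and 6.02 FPKM in WT embryos. The gene pax2b, outside that list, had a log2 ratio of -1.17. Voltage-gated channel and protocadherin genes had 0 of 27 and 0 of 17 past 2-fold. Over all counted genes, 2.07% were higher and 1.69% lower, so counts of 0 or 1 in lists of this size lie near those shares.

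Fast muscle and heart genes lay on opposite sides of the median of all genes. Of 53 counted fast muscle genes, 49 had a log2 ratio below 0. Of the 53, 4 were at least 2-fold lower, beside 1.69% of all counted genes. The list summed to 11813 FPKM in KDM5A-KO and 15744 FPKM in WT embryos. The fast myosin gene myhz2 had 67.0 FPKM in KDM5A-KO and 184 FPKM in WT embryos, a log2 ratio of -1.44. The giant sarcomere gene ttn.1 had 9.28 and 27.7 FPKM, a log2 ratio of -1.48, from 13403 and 16750 reads. Slow muscle genes did not share this, with 8 of 15 above 0, 1 higher, 1 lower and a median 0.10 above that of all genes. The slow muscle myosin gene smyhc1 had 189 FPKM in KDM5A-KO and 177 FPKM in WT embryos. Of 28 heart genes, 23 were above 0, against 48.6% of all genes, with a median 0.50 above that of all genes. Of the 28, 4 were at least 2-fold higher, beside 2.07% of all counted genes. The cardiac myosin light chain genes cmlc1 and myl7 had log2 ratios of 1.22 and 1.07, and myl7 had 24.8 FPKM in KDM5A-KO and 11.3 FPKM in WT embryos. The cardiac troponin gene tnnt2a and the endoderm and heart regulator gata5 both had log2 ratios of 1.08.

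Of 15 xanthophore and iridophore genes, 13 were below 0 and 3 (20%) were at least 2-fold lower, beside 1.69% of all counted genes. The pteridine synthesis genes gch2 and PTS, which supply the yellow pigment, had log2 ratios of -1.34 and -1.35, with gch2 at 34.1 FPKM in KDM5A-KO and 88.2 FPKM in WT embryos. Melanophore genes had 0 of 15 past 2-fold, near the shares over all counted genes, and 14 of 15 lay below 0. Among them tyr, the rate-limiting enzyme of melanin synthesis, had 14.8 FPKM in KDM5A-KO and 18.6 FPKM in WT embryos. Neural crest specifiers had 1 of 16 lower, pax7a, with a log2 ratio of -1.06, short of 2-fold as deposited. The related pax3b, placed in the list of myogenic regulators, had a log2 ratio of -1.13.

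Among genes of the body axis, Hox genes had 0 of 48 past 2-fold, beside 2.07% higher and 1.69% lower over all counted genes, with 40 of 48 below 0 and a median 0.28 below that of all genes. Notochord and floor plate genes had 0 of 31 and 0 of 19 past 2-fold. Somite segmentation and tailbud genes had 1 higher, mespab with 29 and 2 reads, and 1 lower of 27. The lower one, the Notch ligand gene dld, had 19.8 FPKM in KDM5A-KO and 48.1 FPKM in WT embryos, a log2 ratio of -1.24, again short of 2-fold as deposited. Notch ligands, receptors and modifiers had 19 of 23 below 0, with notch1a at 20.3 and 34.9 FPKM and a median 0.46 below that of all genes. The Hes gene her13 was lower as well, with 9.04 FPKM in KDM5A-KO and 27.7 FPKM in WT embryos. The netrin receptor relative prtgb, a protogenin, had 12 and 44.0 FPKM, a log2 ratio of -1.79.

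Motile cilium genes shifted together by a small amount. Of 101 counted genes, 90 were above 0, against 48.6% of all genes, and the median lay 0.49 above that of all genes. Only 6 (5.94%) were at least 2-fold higher, beside 2.07% of all counted genes, against 13 as deposited. The master regulators of motile cilia, foxj1a and foxj1b, had 9.97 and 7.70 FPKM in KDM5A-KO embryos and 5.68 and 1.77 FPKM in WT embryos. The log2 ratios were 0.72 for foxj1a and 1.65 for foxj1b. The radial spoke gene rsph9 had 5.01 FPKM in KDM5A-KO and 2.96 FPKM in WT embryos, while the dynein gene dnah9 had 0.999 and 1.23 FPKM.

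The machinery of ribosome production shifted in a like manner. Of 96 ribosome biogenesis genes, 93 were above 0, with a median 0.43 above that of all genes, and the list summed to 4999 FPKM in KDM5A-KO and 3765 FPKM in WT embryos. The nucleolar methyltransferase gene fbl had 319 and 227 FPKM, and the RNA polymerase I factor rrn3 was past 2-fold with 22.1 and 7.35 FPKM, a log2 ratio of 1.47. Ribosomal proteins themselves had 80 of 89 below 0, with a median 0.16 below that of all genes. The exceptions past 2-fold were RPS27L, higher, and rpl22l1, a paralogue of rpl22, which had 96.7 FPKM in KDM5A-KO and 277 FPKM in WT embryos, from 1242 and 1488 reads. The log2 ratio of rpl22l1 was -1.51, against -0.32 for rpl22. The 13 protein genes of the mitochondrial genome were all below 0, with a median 0.58 below that of all genes, whereas 89 nuclear genes of the respiratory chain had a median 0.05 above it.

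Yolk syncytial and liver plasma protein genes had 28 of 38 above 0 and a median 0.48 above that of all genes. They summed to 4025 FPKM in KDM5A-KO and 2776 FPKM in WT embryos, and the apolipoprotein gene apoa1a had 859 and 495 FPKM. Of the 38 genes 2 were higher and 1 lower, beside 2.07% and 1.69% of all counted genes. Both higher genes are entries of the symbol cpn1 and reached 1 FPKM only in KDM5A-KO embryos, so the count depends on the filter at 1 FPKM. As deposited, 10 of the list were higher and 0 lower. Hatching gland enzymes had 3 of 16 higher, beside 2.07% of all counted genes. The leading one, he1b, had 42.1 FPKM in KDM5A-KO and 7.42 FPKM in WT embryos, a log2 ratio of 2.36. The more abundant hatching enzyme he1a had 215 and 146 FPKM. Embryonic epidermis genes had 0 of 53 higher and 1 lower, and erythroid genes had 1 of 34 higher, near the shares over all counted genes. Endothelial genes had 1 of 41 higher, the matrix gene mmrn2b with 36.8 and 5.96 FPKM, while the vessel markers kdrl and cdh5 had log2 ratios of -0.02 each. In the cytochrome P450 family, cyp24a1, which inactivates vitamin D, had 14.1 FPKM in KDM5A-KO and 1.67 FPKM in WT embryos.

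Bmp and Tgfb genes had 3 of 43 higher, beside 2.07% of all counted genes, namely fsta, the Bmp inhibitor gene szl and the ligand gene tgfb1a, the last with 11.9 FPKM in KDM5A-KO and 4.24 FPKM in WT embryos. Of the 3, szl had 47 reads in the KDM5A-KO and 1 read in the WT library. It reached 1 FPKM only in KDM5A-KO embryos, so the count depends in part on that filter. As deposited, 6 of the 43 were higher. The listed Fgf genes had 1 of 33 lower, the receptor gene fgfr3, and retinoic acid genes had 1 of 28 lower, the receptor gene rxrab. The ligand gene fgf2, which the Fgf list leaves out, was higher, with a log2 ratio of 2.24. The insulin-like growth factor gene igf2a had 32.9 and 6.16 FPKM, a log2 ratio of 2.24.

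**Figure D3:**
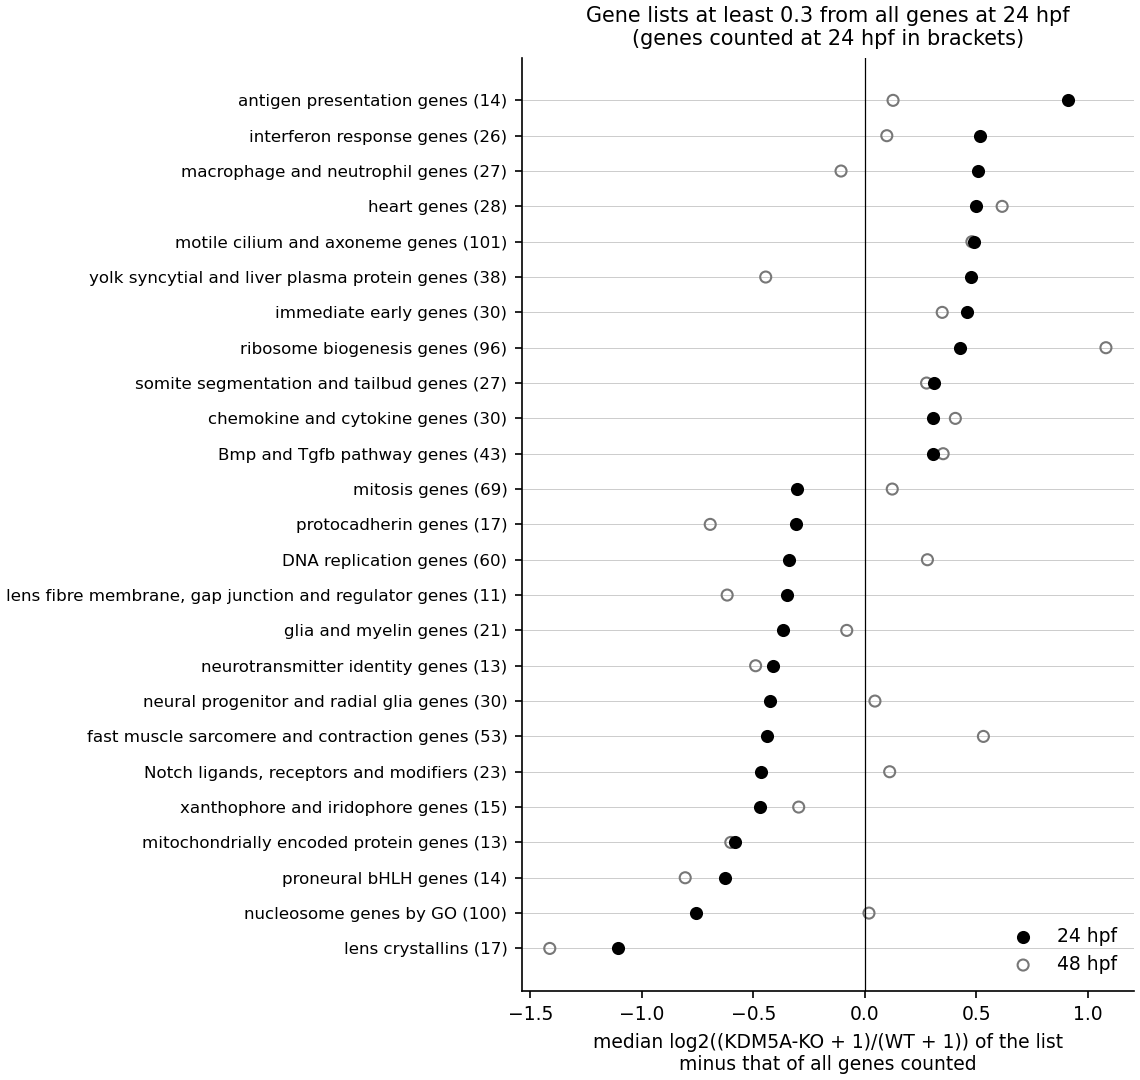
Median log2 ratio of each list minus that of all genes counted (x axis) at 24 hpf (filled points) and 48 hpf (open points), for the 25 lists with at least 10 counted genes and a median at least 0.3 from that of all genes at 24 hpf. At 24 hpf 11 lists lie above 0, up to 0.91 for antigen presentation genes, and 14 below it, down to -1.11 for lens crystallins.

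Gene Ontology (GO) terms, the function labels that the table gives to its genes, were read in the same way. Of 1719 terms given to at least 15 counted genes, the 10 with the largest shares of higher genes held only 27 different higher genes. They included positive regulation of the intrinsic apoptotic signalling pathway, with 3 of 16 higher, extracellular matrix disassembly, with 5 of 26, and cytolysis, with 4 of 16. These terms were picked by that share, which was 2.07% over all counted genes. Their median log2 ratios were 0.21, 0.04 and 0.34. Some higher genes of these terms, such as mmp13a and C7, reached 1 FPKM only in KDM5A-KO embryos, so the shares depend in part on the filter at 1 FPKM. The cytolysis genes included the terminal complement genes c9, at 11.5 FPKM in KDM5A-KO and 4.06 FPKM in WT embryos, and C7, and the lysozyme gene lygl1. The 10 terms with the largest shares of lower genes held 85 different lower genes, and that share was 1.69% over all counted genes. The leading terms were nuclear nucleosome, with 21 of 30 lower, structural constituent of eye lens, with 14 of 29, and nucleosome, with 41 of 100. The terms for defence against bacteria and fungi had 12 of 54 and 3 of 15 lower, and these were all histone genes, while 6 of the 54, such as cebpb, lygl1 and c3a.1, were higher. Smaller terms, each with 2 lower genes of 15, were the semaphorin receptor complex, with plxnb3 and plxna2 lower, and cholesterol transporter activity, with star and apoea lower.

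The 48 hpf libraries, which the counts above used only through the rescaling and the recovered reads, gave a look at the same genes a day later. There, 588 of 17509 counted genes (3.36%) were at least 2-fold higher in KDM5A-KO than in WT embryos and 866 (4.95%) were lower. Of the 337 genes that were higher at 24 hpf, 110 (32.6%) were higher and 5 (1.48%) were lower at 48 hpf. Of the 276 lower genes, 27 (9.78%) were lower and 13 (4.71%) were higher. The most increased genes were mostly shared, since 20 of the 21 genes at least 8-fold higher at 24 hpf were past 2-fold at 48 hpf. Among the 15 highest named genes the only one that was not was atxn1b, at 8.25 FPKM in KDM5A-KO and 6.29 FPKM in WT embryos of 48 hpf.

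The interferon response gene isg15 had 11.9 and 1.14 FPKM at 48 hpf, and 2 of 8 higher interferon response genes were higher there. All 11 lower crystallin genes were lower at 48 hpf, and 35 of 40 crystallin genes counted at that age were lower, with a summed crystallin level of 2448 FPKM in KDM5A-KO and 6668 FPKM in WT embryos. Ribosome biogenesis genes had 52 of 96 past 2-fold at 48 hpf, all higher. Of the 62 lower histone-domain genes, 0 were lower at 48 hpf.

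**Figure D4:**
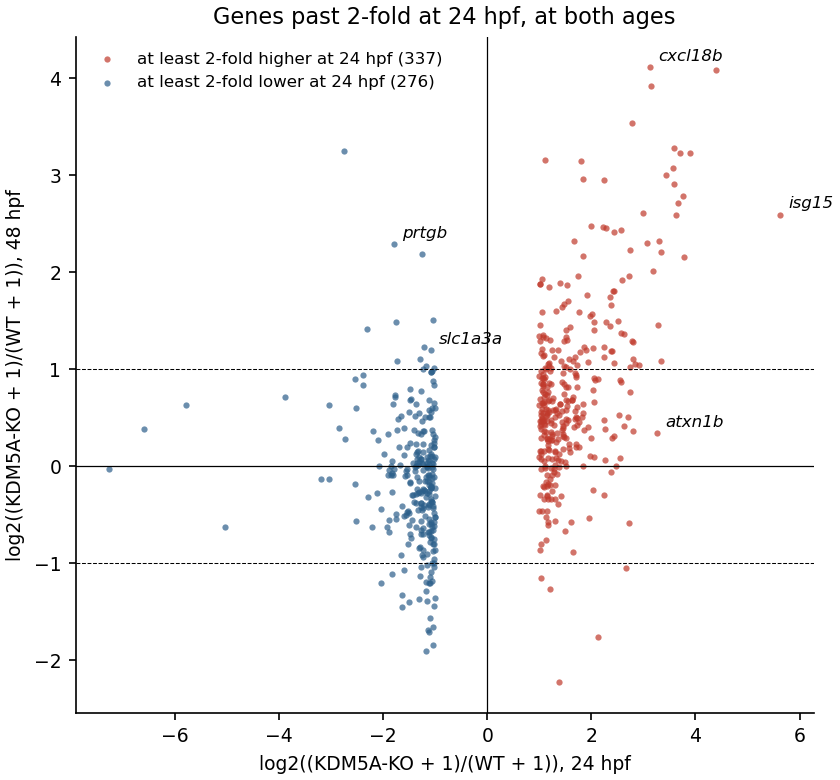
Log2 ratio at 48 hpf (y axis) against that at 24 hpf (x axis) for the 337 higher (red) and 276 lower (blue) genes of 24 hpf, with dashed lines at 2-fold. Of the higher genes 110 lie above the upper line, and of the lower genes 27 lie below the lower line.

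Genes past 2-fold were shorter than average, and this applied to both directions. The median length was 1683 bases for higher genes, 1122.5 bases for lower genes and 2302 bases for all counted genes. Lengths were recovered with the reads, as the smallest that gave whole reads in all libraries. The lower genes include the 62 histone-domain genes, and lengths without them were not taken. With the genes ranked by length and split into 3 equal groups, in the shortest group 3.36% were higher and 3.22% lower, against 0.956% and 0.699% in the longest group. By expression level, 2.32% were higher and 114 of 5438 genes lower in the lowest of 3 groups, against 1.82% higher and 60 of 5439 genes lower in the highest. Higher genes were spread over the chromosomes, while chromosomes 7 and 25, with 36 lower genes each (4.25% and 6.88% of their genes), held the histone genes described above.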

How the data were processed

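Each of the 4 groups of zebrafish embryos gave 1 sequenced RNA library. The authors checked reads with FastQC 0.11.5, filtered them, aligned them with HISAT2 2.1.0 and quantified genes with StringTie 1.3.3b, per the submitters' processing notes, and deposited FPKM values. The labels and the methods name different library kits. The build listed in the labels is one of the mouse, so no coordinates are printed.

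FPKM were divided by median-of-ratios factors over 14596 genes with at least 1 FPKM in all 4 libraries. The pseudocount was 1 FPKM, and genes past 2-fold were counted with no p-value. Library totals were inferred from the FPKM steps of short genes. Whole reads were recovered from the FPKM steps and made up 98.2% to 98.5% of each inferred total. They gave 95% intervals by the exact method of Clopper and Pearson. The smallest whole read numbers that fit were used, so intervals are wide rather than narrow. The method was tested on simulated data. Work was done in Python 3.11.15, with pandas 2.3.3, numpy 2.4.6, matplotlib 3.10.9 and scipy 1.17.1.

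The comparison and the 73 gene lists were chosen with earlier results of these data known. Named genes were the KDM5 family, the 15 highest and 15 lowest log2 ratios with a symbol and an interval beyond 0, the first and the up to 4 most changed members of each list in each direction, and up to 3 of each GO term described. Of these, 1 item is not reported here. Cell type markers, ccng1, pcna, rpl22, oxt, her13, gpm6bb, igf2a, rsph9, dnah9, MFAP4 and srgn were named after their values were seen. The same holds for gnrh2, ghrh, gngt2a and the histone domain and place counts. A serotonin receptor pattern that also matched a protease gene was narrowed. Alternatives were values as deposited, another scaling, a pseudocount of 0.1 FPKM, a mean of at least 5 FPKM, no filter, a 3-fold threshold, all biotypes and the counting interval.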

Additional observations from a re-analysis of the deposited data

Results flagged for a closer look

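Some groups moved in opposite directions at 24 and 48 hpf, with 1 library per group and age, and the difference between the ages was not tested. Fast muscle sarcomere and contraction genes had a median log2 ratio, relative to all genes, of -0.44 at 24 hpf and 0.53 at 48 hpf, and 44 of these genes were below 0 at the first age and above 0 at the second. Yolk syncytial and liver plasma protein genes had 0.48 at 24 hpf and -0.44 at 48 hpf. The protogenin gene prtgb had log2 ratios of -1.79 and 2.29 at the 2 ages, with 8.71 FPKM in KDM5A-KO and 0.989 FPKM in WT embryos at 48 hpf. The glial glutamate transporter gene slc1a3a had log2 ratios of -1.09 and 1.2. The cholesterol transporter gene star had log2 ratios of -1.30 and 1.1, from 5 and 19 reads in the KDM5A-KO and WT libraries of 24 hpf. In all, 13 of the 276 lower genes were at least 2-fold higher at 48 hpf. Reversals also ran the other way, since 5 of the 337 higher genes were at least 2-fold lower at 48 hpf. One of the 5, gngt2a, had log2 ratios of 1.37 and -2.23.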

How the results depend on the processing

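With FPKM as deposited, 611 genes were higher and 159 lower, and 11 genes were lower at both ages. With a pseudocount of 0.1 FPKM, 700 genes were higher and 674 lower, of which 180 and 114 were so at both ages. With a mean of at least 5 FPKM the counts were 183 and 133, with 65 and 13 at both ages, and with a 3-fold threshold they were 129 and 62, with 40 and 0 at both ages. Over all biotypes 496 genes were lower, and 44 of them at both ages. The other counts stayed within 1.5 times those reported, including those without histone-domain and rRNA-locus genes, an alternative chosen after seeing the data. Of 364 list medians recomputed relative to all genes, 7 changed sign. With a mean of at least 5 FPKM these were lens fibre membrane genes (0.0293), otolith genes (0.22), somite segmentation genes (-0.0408), neuron subtype factors (0.16) and ionocyte genes (-0.19), and with no filter otolith genes (0.042) and aryl hydrocarbon receptor targets (-0.0138). No paired analysis was possible because a group held 1 library only, and leaving out a replicate was impossible for the same reason. Of 168 named genes past 2-fold, 136 stayed so as deposited and 104 with a mean of at least 5 FPKM, a filter that leaves out low genes. The WT library of 24 hpf had fewer reads than the others, and changes of genes with few reads in it are not resolved.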
